A study of Mus musculus with 24 samples.

Results

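The genes described here are 42 mouse orthologues of genes on human chromosome 21 (Hsa21) that lie outside the segment triplicated in the Ts65Dn mouse, so that Ts65Dn mice and their wild-type (wt) littermates both carry 2 copies of each. They were found by Ensembl identifier among the 55385 genes counted, and all 42 were present: 24 on Mmu10, 10 on Mmu17 and 8 on the part of Mmu16 that precedes the triplicated segment. The rule that names them states orthology and position and no expression value. The list does not hold every such gene, and it was chosen with earlier results of these data known. On GRCm38 the members occupied chr10:76207222-78464975, chr17:31057675-32062865 and chr16:75745431-81626828, and the last of the Mmu16 members, Ncam2, ended 3.09 Mb before Mrpl39, the first gene of the list of triplicated genes used here.

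In people with Down syndrome, all of Hsa21 is present in an extra copy, but its mouse orthologues are spread over 3 chromosomes, and the Ts65Dn model triplicates only a part of those on Mmu16. The genes left with the normal copy number include Cbs, an enzyme of homocysteine metabolism, the collagen genes Col6a1, Col6a2 and Col18a1, the astrocyte calcium-binding protein gene S100b and the RNA-editing enzyme gene Adarb1. Any difference in their level between genotypes therefore comes without a difference in their own copy number.

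RNA-Seq was performed on the hippocampus (HIP) and entorhinal cortex (EC) of 6 Ts65Dn males and 6 wt littermates aged 5 to 6 months in an F1 B6C3B background, 1 library per region and mouse, 24 in all. Ts65Dn mice carry an additional free minichromosome, made of the distal part of Mmu16 joined to the centromeric part of Mmu17, and the latter adds genes that are not Hsa21 orthologues. Both genotypes share that background, in which the C3B line is C3H/HeN with the BALB/c allele of Pde6b, and no treatment is stated for either. Total counts on genes ranged from 23128589 to 40476492 per library. Levels are given in CPM, counts relative to library size, after TMM scaling over all 24 libraries, and a member is said to have changed where the Benjamini-Hochberg adjusted p-value of edgeR's quasi-likelihood test, over all genes tested, was under 0.05.

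The regions were checked with markers. The summed level of 6 HIP markers was 384 to 554 CPM in the HIP libraries and 182 to 296 CPM in the EC libraries, and that of 6 EC markers was 389 to 601 CPM in the EC and 98.3 to 177 CPM in the HIP. Singly, at an adjusted p under 0.05 in wt, 5 of the 6 HIP markers were higher in the HIP and 1 was lower. Of the 6 EC markers 5 were lower in the HIP and 0 were higher. The triplicated genes of Mmu16 checked the genotype. Their median fold against the wt mean was 1.42 to 1.54 in 5 of the 6 Ts65Dn HIP libraries and 1.46 to 1.52 in 5 of the 6 Ts65Dn EC libraries. The libraries labelled Ts65Dn replicate 3 had 1.01 and 0.996, as wt libraries did. They were kept under their label, and main results are also given without them where they moved.

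As a group, the disomic orthologues stayed close to the wt level in both regions. In the HIP 40 of the 42 members had enough counts to be tested, and 0 of them changed, where 1.04% of all 17355 genes tested did. By DESeq2, 1 member changed, Sumo3, and 10 members had an unadjusted edgeR p under 0.05 (14.8% of all genes). In the EC 41 members were tested and 2 changed, Nrip1 downward and Pde9a upward, where 2.50% of all 17049 genes did. There DESeq2 called 4 members, Nrip1, Pde9a, Cbs and Hspa13 (7.43% of all genes), and an edgeR fit of all 24 libraries called the same 4 (4.24% of all genes). The members' median log2 fold change was 0.02 (HIP) and 0.03 (EC), beside 0.0047 and 0.0046 over all genes tested. Single members ranged from 0.797-fold (Btg3) to 1.39-fold (Col18a1) in the HIP and from 0.781-fold (Cbs) to 1.29-fold (Pde9a) in the EC.

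An extra copy of a gene predicts 1.5-fold, and the 95% interval of each fold change shows how far a member was resolved from that level. The upper end was below 1.5-fold for 36 of 40 members in the HIP (84.4% of all genes tested) and for 38 of 41 in the EC (85.6% of all genes tested). The 4 HIP members that reached 1.5-fold were Col18a1, Col6a1, Col6a2 and Sik1, and the 3 EC members were Chodl, Col18a1 and Sik1. In a list of 87 triplicated Mmu16 orthologues, the upper end was below 1.5-fold for 12 of the 77 genes tested in HIP and 9 of the 75 tested in EC, and their median log2 fold changes were 0.50 and 0.51. Without the libraries labelled Ts65Dn replicate 3, the member counts were 37 of 40 and 37 of 41, and the triplicated genes had 8 of 78 and 6 of 76, with medians of 0.58 and 0.57. For a median member the interval reached 1.11-fold to either side of the estimate in each region. In such a member a smaller difference could not be resolved from no change, and other members had narrower or wider intervals.

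**Figure D1:**
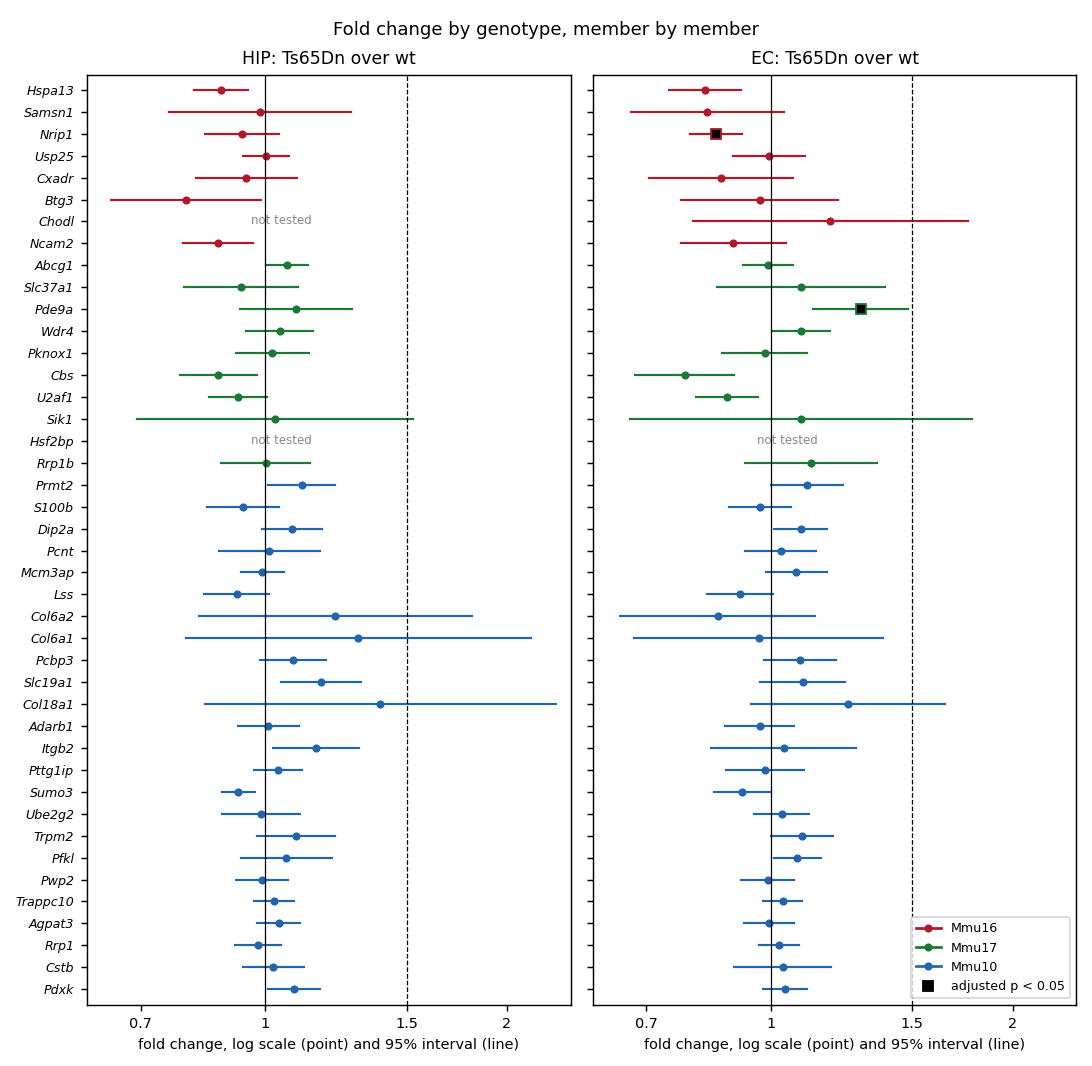
Fold change of each of the 42 members, Ts65Dn over wt, in the HIP (left) and EC (right) on a log scale, with its 95% interval as a line (6 against 6 libraries); colours give the chromosome, black squares the members with an adjusted p under 0.05, and the dashed line 1.5-fold, the level predicted by an extra copy. Most intervals lie around 1, only Nrip1 and Pde9a in the EC carry a square, and the upper end reaches the dashed line for 4 members in the HIP and 3 in the EC.

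A second list held 26 further disomic Hsa21 orthologues that were not among the members, many of them with few counts in brain. Of the 13 tested in the HIP and the 12 tested in the EC, 0 changed in either region, with or without Ts65Dn replicate 3. With all mice 1 in each had an unadjusted edgeR p under 0.05 (14.8% and 19.0% of all genes tested). The median log2 fold change of this list was 0.07 in both regions. In the triplicated list, 41 of 77 genes rose in HIP and 42 of 75 rose in EC, and 0 fell. Without Ts65Dn replicate 3, 57 of 78 and 59 of 76 rose.

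**Figure D2:**
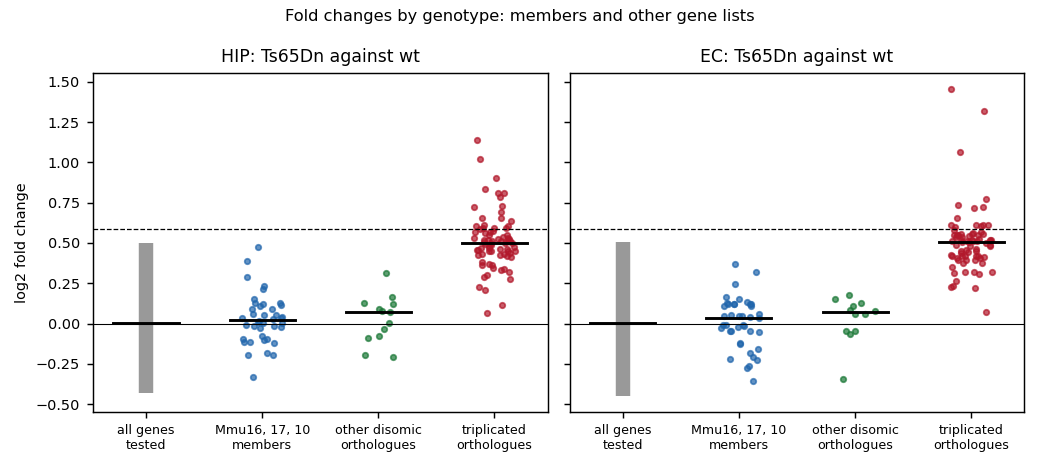
Log2 fold change by genotype of the members, of the other disomic orthologues and of the triplicated Mmu16 orthologues (points, 1 per gene tested) in the HIP (left) and EC (right), with the central 95% of all genes tested as a grey bar; black lines are medians and the dashed line is 1.5-fold. The member medians lie at 0.02 and 0.03, near 0, and the medians of the triplicated genes at 0.50 and 0.51.

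Among the Mmu16 members, which are the closest to the triplicated segment, the differences were mostly toward lower levels in Ts65Dn. Of the 7 tested in the HIP 6 had a negative log2 fold change and 0 changed, and of the 8 tested in the EC 7 were negative and 1 changed. Their median log2 fold change was -0.10 (HIP) and -0.18 (EC), and without Ts65Dn replicate 3 it was -0.12 (6 of 7 negative) and -0.11 (6 of 8 negative, 2 changed). Other genes tested within the same stretch of Mmu16 had medians of -0.02 in both regions (7 HIP and 4 EC genes).

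Nrip1 encodes a corepressor of nuclear receptors. In the EC its lowest, median and highest levels were 72.2, 74.2 and 84.7 CPM in wt and 61.5, 65.9 and 69.1 CPM in Ts65Dn. All 6 Ts65Dn libraries lay below all 6 wt libraries, and among them was the one labelled replicate 3, at 65.3 CPM. Groups without overlap, in either direction, were found for 2 members and 2.42% of all genes tested in the EC, and for 0 members and 1.69% of all genes in the HIP. The log2 fold change was -0.23 (SE 0.05, adjusted p = 0.0313). Without single mice the adjusted p ran from 0.0275 to 0.0776, and it passed 0.05 without wt replicates 1, 3, 4 or 5 (0.0518, 0.0776, 0.0665 and 0.0562) and without Ts65Dn replicates 1, 2 or 4 (0.0623, 0.0666 and 0.0688). In the HIP the levels overlapped, with 60.3, 65.3 and 73.1 CPM in wt and 55.3, 57.9 and 73.0 CPM in Ts65Dn, a log2 fold change of -0.10 (SE 0.07, adjusted p = 0.580).

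Hspa13, a microsomal member of the HSP70 chaperone family, had the second lowest p-value of the Mmu16 members in the EC. Its levels there were 75.4, 82.2 and 87.9 CPM in wt and 55.3, 70.4 and 76.5 CPM in Ts65Dn. The groups overlapped by a single pair of libraries, and the log2 fold change of -0.27 (SE 0.07) had an adjusted p of 0.0526. The adjusted p was 0.0417 without the libraries labelled Ts65Dn replicate 3, which held the lowest level, and 0.0366 without Ts65Dn replicate 5, which held the highest. In the HIP it was 70.0, 72.4 and 80.3 CPM in wt and 57.4, 65.1 and 70.4 CPM in Ts65Dn, with a log2 fold change of -0.18 (SE 0.05, adjusted p = 0.121).

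Ncam2, a neural cell adhesion molecule and the member nearest the triplicated segment, did not pass the test in either region. In the HIP it lay at 94.6, 100.1 and 106.5 CPM in wt and 77.2, 87.2 and 102.5 CPM in Ts65Dn (log2 fold change -0.19, SE 0.07, adjusted p = 0.194). In the EC it lay at 116.6, 135.9 and 170.7 CPM in wt and 103.7, 125.2 and 149.1 CPM in Ts65Dn (log2 fold change -0.16, SE 0.10, adjusted p = 0.440). The ranges overlapped in both regions. The EC estimate ran from -0.21 to -0.09 without single mice, with the value nearest 0 without wt replicate 6. Btg3, an antiproliferative gene, had the largest negative estimate in the HIP, with 2.72, 3.49 and 4.01 CPM in wt and 2.04, 2.73 and 3.30 CPM in Ts65Dn (log2 fold change -0.33, SE 0.14, adjusted p = 0.312). Its EC log2 fold change was -0.05 (SE 0.15). Its exons overlap those of Cxadr on the opposite strand, and the strand setting of the counting was not given in the sources used here, so reads of the pair may not be fully separated.

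The Mmu16 members were also the members with the lowest GC content. Taken on the longest annotated transcript of each gene, their median was 43.3% GC, against 52.7% for the Mmu17 members, 54.0% for the Mmu10 members and 49.6% for all genes tested in the EC. The libraries differed by genotype in how counts followed GC content: the slope of log2 CPM per 10 points of GC, relative to the mean of the region, was -0.128 to 0.014 in wt EC and -0.033 to 0.186 in Ts65Dn EC, and -0.118 to 0.030 in wt HIP and -0.037 to 0.120 in Ts65Dn HIP. With GC content and transcript length removed, the median log2 fold change of the Mmu16 members was -0.04 in HIP (4 of 7 negative) and -0.08 in EC (5 of 8 negative). The log2 fold changes in the EC were then -0.15 for Nrip1 (adjusted p = 0.174), -0.14 for Hspa13 (adjusted p = 0.312) and 0.02 for Ncam2 (adjusted p = 0.943). After this removal 0 members passed the test. An unadjusted edgeR p under 0.05 was left for 6 of 40 HIP members, beside 1860 of all 17346 genes. For the EC it was left for 6 of 41 members, beside 2330 of all 17041 genes. The count of all genes passing the adjusted test was 108 in place of 181 for HIP and 139 in place of 426 for EC. The part of GC content in the member values was not tested.

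Among the Mmu17 members the estimates went in both directions. Their median log2 fold change was 0.03 in HIP (0 of 9 changed, 1.04% of all genes) and 0.12 in EC (1 of 9 changed, 2.50% of all genes). Pde9a, a phosphodiesterase that degrades cGMP, rose in the EC. Its levels were 7.16, 7.74 and 10.01 CPM in wt and 10.04, 10.4 and 12.1 CPM in Ts65Dn. The groups did not overlap, but the highest wt library (replicate 1) and the lowest Ts65Dn library (the one labelled replicate 3) lay next to each other. The log2 fold change was 0.37 (SE 0.09, adjusted p = 0.0482), that is 1.29-fold with a 95% interval of 1.13 to 1.48. Without single mice the adjusted p ran from 0.0331 to 0.118: it was 0.0688, 0.0621, 0.111, 0.0973 and 0.0883 without wt replicates 2 to 6, and 0.118, 0.0913, 0.0809 and 0.0645 without Ts65Dn replicates 1, 2, 4 and 5. With GC content and length removed the log2 fold change was 0.32 (adjusted p = 0.128). In the HIP the ranges overlapped, with 5.83, 7.61 and 9.07 CPM in wt and 7.53, 7.96 and 10.04 CPM in Ts65Dn (log2 fold change 0.13, SE 0.11, adjusted p = 0.624). The exons of Pde9a overlap those of the gene models AC166172.5 and AC166172.6 on the opposite strand. As the strand setting of the counting was not given in the sources used here, their reads may not be fully separated.

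Cbs, cystathionine beta-synthase, converts homocysteine in the transsulfuration pathway. In the EC it lay at 19.7, 22.3 and 24.8 CPM in wt and 14.6, 16.8 and 22.97 CPM in Ts65Dn. The highest Ts65Dn value was that of the library labelled replicate 3, and the other 5 lay between 14.6 and 17.5 CPM, below every wt library. Over all 6 the log2 fold change was -0.36 (SE 0.10, adjusted p = 0.0623), and without that mouse it was -0.45 (adjusted p = 0.00356). Leaving out any other single mouse did not bring the adjusted p under 0.05, but with all 6 mice it was 0.0121 by DESeq2 and 0.0288 in the edgeR fit of all 24 libraries. In the HIP the same library was again the highest of its group, at 25.6 CPM against 20.6 to 22.4 CPM for the other 5, and wt lay at 21.5, 25.4 and 27.5 CPM. The HIP log2 fold change was -0.19 (SE 0.07, adjusted p = 0.253), and without that mouse -0.24 (adjusted p = 0.0907). With GC content and length removed and all 6 mice, the EC value was -0.37 (adjusted p = 0.127).

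The 250 bases in front of the start of Nrip1 and the 217 bases in front of the annotated start of Cbs are shown because both genes had a lower mean level in the Ts65Dn EC, with a call for Nrip1 in the test used throughout and for Cbs under the alternatives given above, and because the windows differ in base composition. They come from RefSeq on GRCm38.p6, are written 5′ to 3′ on the minus strand, from which both genes are read, and cover chr16:76373828-76374077 and chr17:31637239-31637455. Capitals mark the letters GGGCGG or CCAAT on either strand.
Nrip1: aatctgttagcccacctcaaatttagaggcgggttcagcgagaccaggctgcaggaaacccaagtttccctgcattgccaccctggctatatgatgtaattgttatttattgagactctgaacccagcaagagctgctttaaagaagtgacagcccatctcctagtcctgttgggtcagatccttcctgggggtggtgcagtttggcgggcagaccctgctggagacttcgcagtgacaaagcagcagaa
Cbs: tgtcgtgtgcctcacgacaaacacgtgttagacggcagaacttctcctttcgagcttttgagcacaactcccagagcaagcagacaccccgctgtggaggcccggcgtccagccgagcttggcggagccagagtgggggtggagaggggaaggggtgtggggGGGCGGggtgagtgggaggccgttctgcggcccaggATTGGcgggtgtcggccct
The Nrip1 window was 51.2% GC with 4 CpG and held 0 matches, and the Cbs window was 65.4% GC with 15 CpG and held 1 match to each. Windows of 250 bases were found for 32 of the 42 members (41 starts), of which 56.1% held GGGCGG and 29.3% CCAAT, beside 32.7% and 33.9% of all 32851 windows. Matches are descriptions of sequence, and the expression data hold no measure at these windows.

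In brain, Cbs is known chiefly from astrocytes. The summed level of 6 astrocyte markers in the EC was 5563, 5807 and 6446 CPM in wt and 4298, 4937 and 5756 CPM in Ts65Dn, 1 of the 6 markers had a positive log2 fold change and 0 of the 6 changed. The Ts65Dn EC libraries with the least Cbs (replicate 4) and the most (the one labelled replicate 3) had the highest astrocyte sums of their group, 5756 and 5691 CPM, and the other 4 lay between 4298 and 4943 CPM, below every wt library. The part of astrocyte markers in the Cbs values was not tested. S100b, a member that marks astrocytes, did not pass the test, with log2 fold changes of -0.04 (SE 0.06) in the EC and -0.09 (SE 0.07) in the HIP. In bulk tissue, fewer cells of a type and less RNA per cell cannot be told apart.

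**Figure D3:**
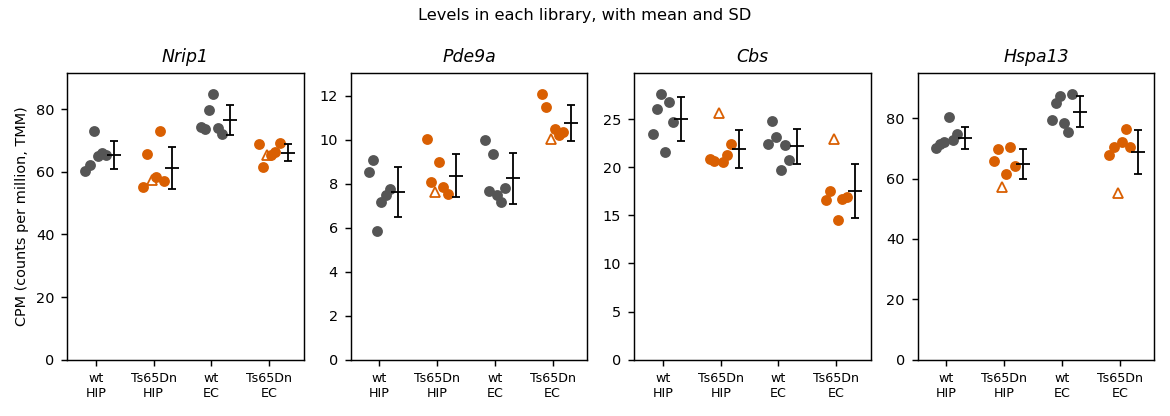
Level of Nrip1, Pde9a, Cbs and Hspa13 in each library, in CPM from 0, for wt (grey) and Ts65Dn (orange) in both regions; the open triangle is the mouse labelled Ts65Dn replicate 3, and bars are the mean and SD of 6 libraries. In the EC the Nrip1 and Pde9a groups do not overlap, and the triangle of Cbs, at 22.97 CPM, stands above the other 5 Ts65Dn libraries.

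None of the 24 Mmu10 members changed in either region. An unadjusted edgeR p under 0.05 was found for 5 in the HIP (14.8% of all genes) and 4 in the EC (19.0% of all genes). The median log2 fold change of the 24 was 0.05 in both regions, and 0.02 (HIP) and -0.01 (EC) after GC content and length were removed. The other genes tested within the same stretch had medians of 0.07 (8 genes) and 0.08 (9 genes). DESeq2 called 1 member in the HIP, Sumo3, a ubiquitin-like modifier (adjusted p = 0.0287, where 3.58% of all genes were called). Sumo3 lay at 96.8, 101.0 and 104.4 CPM in wt HIP and 91.3, 92.0 and 97.8 CPM in Ts65Dn HIP, an overlap of the highest Ts65Dn library with the low end of wt. By edgeR its log2 fold change was -0.11 (SE 0.03, adjusted p = 0.119) in the HIP and -0.12 (SE 0.05, adjusted p = 0.2565) in the EC. Its exons are shared with the gene model Gm49325 on the same strand, which can take reads from it.

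Prmt2, an arginine methyltransferase, had a like positive estimate in both regions without passing the test. It lay at 50.3, 55.7 and 60.5 CPM in wt HIP and 53.7, 63.4 and 68.7 CPM in Ts65Dn HIP (log2 fold change 0.15, SE 0.06, adjusted p = 0.3025), and at 54.6, 60.8 and 68.4 CPM in wt EC and 58.8, 68.5 and 75.2 CPM in Ts65Dn EC (log2 fold change 0.15, SE 0.07, adjusted p = 0.2595). The ranges overlapped in both. After removal of GC content and length it had 0.08 (HIP) and 0.07 (EC).

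Among the members tested in the HIP, the collagen genes Col18a1 and Col6a1 had the widest intervals. Col18a1, which encodes a basement membrane collagen, lay at 3.01, 5.09 and 9.71 CPM in wt HIP and 3.70, 6.91 and 14.0 CPM in Ts65Dn HIP, a log2 fold change of 0.48 (SE 0.34, adjusted p = 0.559). In the EC it lay at 2.22, 3.51 and 5.07 CPM in wt and 3.02, 4.82 and 5.51 CPM in Ts65Dn (log2 fold change 0.32, SE 0.19, adjusted p = 0.383). The collagen VI chain gene Col6a1 lay at 3.46, 5.27 and 6.59 CPM in wt HIP and 2.29, 6.04 and 13.2 CPM in Ts65Dn HIP (log2 fold change 0.39, SE 0.33, adjusted p = 0.635). Its partner Col6a2 had a log2 fold change of 0.29 (SE 0.26) in the HIP. All ranges overlapped. The HIP estimates depended on Ts65Dn replicate 1, without which they were 0.23 for Col18a1, 0.09 for Col6a1 and 0.10 for Col6a2.

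These genes varied between libraries together with markers of tissue that borders the HIP. The summed level of 5 choroid plexus markers ranged from 87.7 to 4844 CPM in wt HIP and from 51.7 to 5068 CPM in Ts65Dn HIP, and that of 5 meningeal fibroblast markers from 31.2 to 79.7 and from 33.4 to 149.9 CPM. All 5 markers of each list had a positive log2 fold change in the HIP and 0 of them changed. The 4 HIP libraries highest in either list were Ts65Dn replicates 1, 2 and 3 and wt replicate 2, and the same 4 were the highest in Col18a1, in Col6a1 and in Col6a2. In the EC the 4 libraries highest in the fibroblast markers were also the 4 highest in Col6a1, and 3 of them were among the 4 highest in Col6a2. The part of these tissues in the collagen values was not tested.

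**Figure D4:**
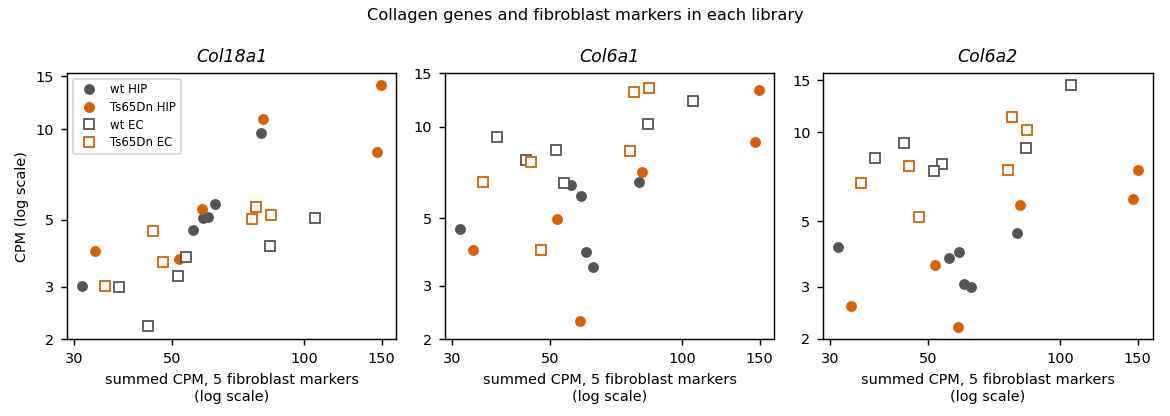
Level of Col18a1, Col6a1 and Col6a2 (CPM, log scale) against the summed level of 5 meningeal fibroblast markers (CPM, log scale), 1 point per library; circles are HIP, squares EC, grey wt and orange Ts65Dn. In the HIP the 4 libraries highest in the markers are also the 4 highest in each of the 3 genes.

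By role, the members showed no group in which more than 1 passed the test by genotype. Of the 13 members of transcription and RNA processing 12 were tested in each region, and 1 changed, Nrip1 in the EC, with median log2 fold changes of -0.0048 (HIP) and 0.01 (EC). Of the 5 of signalling and ion channels 1 changed, Pde9a in the EC. The 8 of metabolism and transport, from Cbs and the glycolytic gene Pfkl to the cholesterol exporter gene Abcg1, had 0 changed in either region. The same held for the 5 of protein modification and turnover, for the 4 of trafficking and the centrosome, and for the 6 (HIP) and 7 (EC) tested of extracellular matrix and adhesion. The members with an unadjusted edgeR p under 0.05, chosen here after their values were seen, were Slc19a1, Itgb2, Prmt2, Pdxk and Abcg1 upward (1.06-fold to 1.17-fold) and Sumo3, Hspa13, Cbs, Ncam2 and Btg3 downward in the HIP (0.797-fold to 0.926-fold). In the EC they were Pde9a, Prmt2, Wdr4, Dip2a and Pfkl upward (1.079-fold to 1.29-fold) and Sumo3, U2af1, Nrip1, Hspa13 and Cbs downward (0.781-fold to 0.921-fold). These were 10 of 40 HIP members and 10 of 41 EC members, beside 14.8% and 19.0% of all genes tested.

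Leaving out the mouse labelled Ts65Dn replicate 3 added 2 calls in the EC. The 4 members that then changed were Nrip1, Pde9a, Cbs and Hspa13 (2.79% of all genes tested did), and 0 of 40 changed in the HIP (1.82% of all genes did). In that HIP fit 11 members had an unadjusted edgeR p under 0.05, beside 2966 of all 17452 genes tested. The members of that mouse were not apart from the others as a group: their median fold against the wt mean was 1.01 for the HIP library and 1.002 for the EC library, where the other 5 Ts65Dn mice had 0.982 to 1.03 and 0.982 to 1.05.

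Whether the difference by genotype differed between the regions was tested with a term for each mouse. Of the 41 members tested 0 passed, and the same was so of all 18109 genes. At an unadjusted p under 0.05 there were 3 members, Col6a2, Col6a1 and Cbs, beside 4.10% of all genes. With all mice their estimates of the HIP difference minus the EC difference were 0.44 (SE 0.17), 0.38 (SE 0.17) and 0.17 (SE 0.08) on the log2 scale, each with an adjusted p of 0.9998, and DESeq2 called 0 members too. Without Ts65Dn replicate 3 the members under 0.05 were 4, all on Mmu17, namely Cbs, Abcg1, Slc37a1 and Rrp1b, beside 6.46% of all genes. Col6a2 and Col6a1, at 0.35 (SE 0.17) and 0.32 (SE 0.18), were then not among them, and 0 members passed the adjusted test. The calls of Nrip1 and Pde9a in the EC are therefore not shown to differ from the HIP, with interaction estimates of 0.12 (SE 0.08) and -0.25 (SE 0.13).

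More members differed by region than by genotype. In the 6 wt mice, 27 of 41 members tested differed between HIP and EC, 10 of them higher in the HIP (24.4% of the members, 31.0% of all genes) and 17 lower (41.5% of the members, 30.3% of all genes). In the 6 Ts65Dn mice 26 of 41 differed, 11 higher in the HIP (26.6% of all genes) and 15 lower (25.7% of all genes). The lower members of each genotype include Chodl, which passed the filter on low counts only through the EC and is described below without a test. In total 20 members differed in both genotypes, 74.1% of the wt calls and 76.9% of the Ts65Dn calls, and all 20 had the same sign in both. The Ts65Dn count was sensitive to mice: it was 26 with all mice and 17 without Ts65Dn replicate 5. Over all genes the Ts65Dn calls then went from 9055 to 7587.

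Genes of matrix and adhesion were among the members with the largest differences toward the EC. Besides Chodl, 5 of the 6 in that list differed in wt, 4 of them lower in the HIP. Over all genes tested 61.3% differed in wt, and 30.3% were lower in the HIP. Col6a2 lay at 2.98, 3.84 and 4.57 CPM in wt HIP and 7.39, 8.53 and 14.4 CPM in wt EC with no overlap (log2 fold change -1.31, SE 0.09, adjusted p = 7.33e-07). Col6a1 was lower in the HIP in 6 of 6 wt mice (log2 fold change -0.83, SE 0.09, adjusted p = 2.4e-05), with 8.81 CPM as its median in wt EC against 5.27 in wt HIP. Cxadr, a cell adhesion molecule that also serves viruses as a receptor, lay at 14.7, 16.3 and 20.5 CPM in wt HIP and 22.0, 28.4 and 35.0 CPM in wt EC (log2 fold change -0.68, SE 0.07, adjusted p = 1.85e-05). In Ts65Dn, Cxadr was lower in the HIP in 5 of 6 mice, with a log2 fold change of -0.54 (SE 0.14, adjusted p = 0.00889). All 4 endothelial markers, 3 of 5 pericyte and smooth muscle markers and 0 of 5 meningeal fibroblast markers were also lower in the wt HIP, and their part in these values was not tested.

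Chodl, a C-type lectin of the cell membrane, passed the filter on low counts only through the EC, so its difference is given as a description, with no test. It lay at 0.118, 0.229 and 0.452 CPM (3 to 19 counts) in wt HIP and 0.417, 0.917 and 1.57 CPM (11 to 38 counts) in wt EC, and the level was lower in the HIP in 6 of 6 wt and 6 of 6 Ts65Dn mice. It is among the members counted above as lower in the HIP in each genotype.

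Toward the HIP the differences were smaller. Col18a1 was higher in the HIP in 6 of 6 wt mice (log2 fold change 0.60, SE 0.11, adjusted p = 0.00104). All 5 choroid plexus markers and all 5 oligodendrocyte markers were higher in the wt HIP as well, and the choroid plexus sum in the EC was 11.8 to 48.7 CPM in wt. Of the choroid plexus markers, only 3 had enough counts in the EC libraries to be tested there by genotype. Rrp1b, a ribosome biogenesis gene whose exons overlap those of Hsf2bp on the opposite strand, was higher in 6 of 6 mice (log2 fold change 0.38, SE 0.08, adjusted p = 0.00162). It lay at 6.58, 7.75 and 8.22 CPM in the wt HIP and 4.93, 5.92 and 6.88 CPM in the wt EC. Pfkl, the liver-type phosphofructokinase gene, lay at 234.8, 250.3 and 268.8 CPM in the wt HIP and 177.5, 191.1 and 210.1 CPM in the wt EC with no overlap (log2 fold change 0.37, SE 0.04, adjusted p = 4.96e-05). Dip2a lay at 83.1, 87.0 and 99.2 CPM and at 65.3, 70.8 and 79.8 CPM, again with no overlap (log2 fold change 0.34, SE 0.05, adjusted p = 0.000215).

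**Figure D5:**
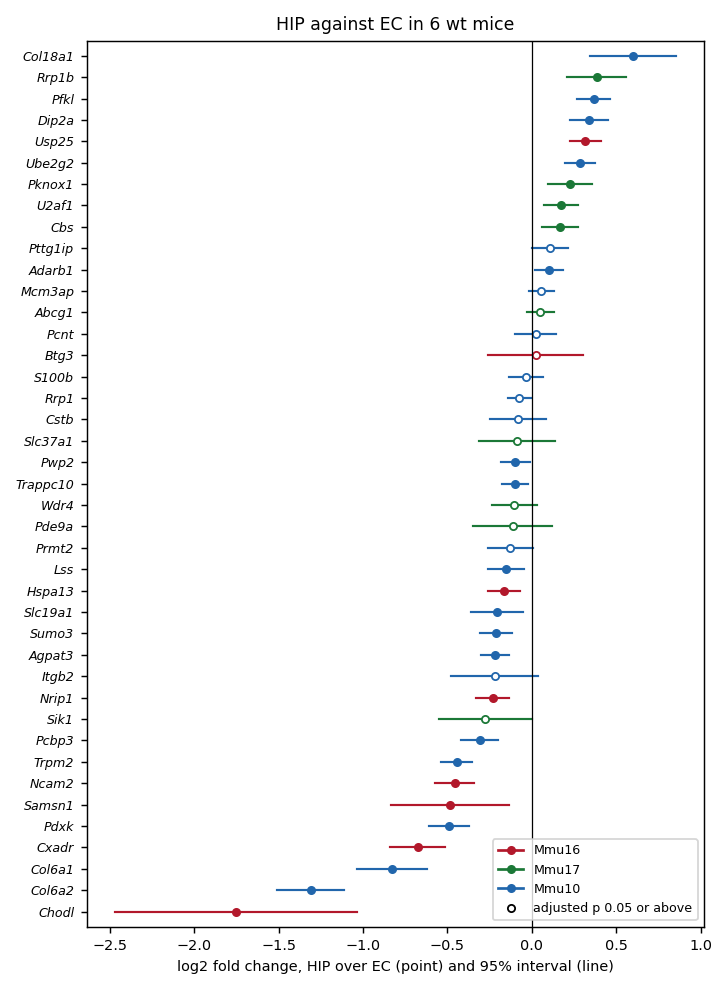
Log2 fold change of 41 members between HIP and EC in the 6 wt mice (above 0, higher in the HIP) with 95% intervals as lines; colours give the chromosome and open points the members with an adjusted p of 0.05 or above. Estimates run from -1.75 (Chodl, which passed the filter only through the EC) to 0.60 (Col18a1), and 10 members are higher and 17 lower in the HIP.

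Per kilobase of annotated exon, the levels of the members differed widely. In the wt HIP S100b had the highest level, at 94.8 ± 7.53 CPM per kb (SD, n = 6), followed by the ribosome biogenesis gene Rrp1 at 78.4 ± 2.37, Pfkl at 37.7 ± 2.14, the acyltransferase gene Agpat3 at 33.3 ± 1.25 and Sumo3 at 27.5 ± 0.777. In the wt EC the same 5 genes were the highest, with Pfkl (29.1 ± 1.86) next to Sumo3 (31.8 ± 2.84) and within its spread. At the other end, Chodl had 0.050 ± 0.026 and Hsf2bp, a gene known from meiosis, 0.057 ± 0.023 CPM per kb in the wt HIP, which did not differ beyond their spread. These were the members that did not reach the test: Chodl was not tested by genotype in the HIP (1 to 19 counts per library), and Hsf2bp was tested in no comparison, with 2 to 12 counts in the HIP libraries and 0 to 21 in the EC libraries.

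Sik1, the gene of a salt-inducible kinase that responds to cAMP and neuronal activity, varied widely between mice of a group in the EC. It lay at 6.10, 8.37 and 15.9 CPM in wt and 6.20, 6.78 and 22.8 CPM in Ts65Dn, and the highest library was replicate 6 in each genotype. The 95% interval of its EC fold ran from 0.667 to 1.78, which holds the wt level and the 1.5-fold of an extra copy.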

How the data were processed

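The deposited table holds raw read counts per gene, which the authors made with Hisat2 and HTSeq-count from 50 bp single-end reads on GRCm38 (Ensembl release 99). The labels name a poly-A selecting kit and the study's methods also a ribosomal depletion, and the strand setting of the counting was not given in the sources used here. The submitters' processing notes also name bcl2fastq 2.17.1.14 and DESeq2. Symbols and exon lengths came from GENCODE vM21, by identifier (99.6% of genes matched). The members and lists were chosen with earlier results of these data known.

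Genes were filtered by filterByExpr, scaled by TMM and tested by edgeR 4.0.16 (R 4.3.3) with glmQLFit and glmQLFTest, Ts65Dn against wt within each region, with 6 libraries each. HIP against EC and the interaction had a term for each mouse, since libraries of a mouse share its number in the labels. Among the 6 EC libraries of its genotype, every HIP library correlated best with that of its own mouse (r = 0.176 to 0.432). Adjusted p-values are Benjamini-Hochberg over all genes tested, and intervals are 95% intervals of the fitted log2 fold change. Alternatives were DESeq2 1.42.0, other scaling and filters, a block, leaving out each mouse, and removal of GC content and length (splines with 5 degrees of freedom), the last chosen after seeing the data. The fits were tested on simulated data. Genes named with their values were every member called by genotype, the 3 with the largest log2 fold change by genotype in each region, the 4 called members with the largest difference toward each region in wt, those with an unadjusted p under 0.05 in both regions, Ncam2 as the nearest to the triplicated segment, Cbs, and members not tested. Sik1, S100b and Col6a2 by genotype were chosen after their values were seen.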

Additional observations from a re-analysis of the deposited data

Results flagged for a closer look

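In 5 of the 68 groups of 6 libraries examined, the highest or lowest library stood apart from the others by Dixon's criterion at the 95% level, where chance alone gives about 1 in 20. The libraries labelled Ts65Dn replicate 3 made up 4 of the 5. Their median fold over the triplicated Mmu16 orthologues was 1.012 in the HIP, against 1.423 to 1.537 in the other 5 Ts65Dn libraries, and 0.9964 in the EC, against 1.459 to 1.519. Their Cbs level was 25.59 CPM in the HIP, against 20.55 to 22.39 CPM, and 22.97 CPM in the EC, against 14.55 to 17.48 CPM. The other was Col6a2 in wt EC replicate 2, at 14.43 CPM against 7.394 to 9.188 CPM. That library also had the highest sum of meningeal fibroblast markers among the EC libraries. The causes were not tested.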

How the results depend on the processing

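In the HIP 0 members changed under each alternative and in each of the 12 fits without a single mouse (0 to 0), except under DESeq2, with 1 (Sumo3). In the EC, where 2 changed, the count was 4 under DESeq2, 4 with all 24 libraries in 1 fit, 0 with no filter on low counts, 0 with the replicate number as a block and 0 with GC content and length removed, and 0 to 4 without single mice. Wt and Ts65Dn mice share only a number: same-numbered pairs correlated at -0.209 to 0.167, and 1 of 6 in each region correlated best with its own number. The members that differed between HIP and EC in Ts65Dn numbered 17 to 25 without single mice, and 17 without Ts65Dn replicate 5. In wt they numbered 23 to 26. The interaction had 0 members throughout. Over all genes, DESeq2 called 589 in the HIP and 1098 in the EC, all 24 libraries in 1 fit 768 in the EC, the HIP without Ts65Dn replicate 3 318, the fit with GC content and length removed 108 and 139, and the replicate block 29 and 36, against 181 and 426. For the named genes, 359 alternatives kept direction and side of the threshold, 22 lost the call, 9 gained it and 1 turned its direction, Ncam2 in the EC, at 0.0224 with GC content and length removed. The causes were not tested. Chodl and Hsf2bp were limited by depth, with at most 43 counts in a library.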
